A study of Macaca fascicularis with 16 samples.

Results

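Replication-dependent histone genes encode the core histones H2A, H2B, H3 and H4 and the linker histone H1, the proteins around which DNA is packed. The genes described here are those whose symbol begins with HIST1H, HIST2H, HIST3H or HIST4H in the deposited count tables and that had 20 or more raw counts in total over the 16 libraries of peripheral blood mononuclear cells (PBMC) from cynomolgus macaques. They were chosen by that total, a measured value, so their being detected is a description and not a result. In all, 56 of 73 such symbols reached the limit, out of 23602 symbols in the tables.

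These genes lie in clusters and are present in many near-identical copies. In dividing cells their transcripts accumulate in S phase, and they typically end in a stem-loop bound by SLBP in place of a poly(A) tail. A few of them are known from human cells to give a second, polyadenylated transcript as well, which persists in cells that have stopped dividing, and most lymphocytes and monocytes in blood are not dividing.

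The study drew blood from 4 Mauritian-origin cynomolgus macaques (LG04, LG11, LG12 and LG15) before treatment and at 30 min, 2 h and 1 day after they received the antibody NKTT320, which recognises the T-cell receptor shared by invariant natural killer T (iNKT) cells. Each group therefore holds 1 library from each of the same 4 animals, all of them treated, and the labels give no genotype, sex or age. No untreated animals were analysed here, so an effect of the antibody, of time and of repeated bleeding cannot be told apart. Libraries were made from total RNA of unfractionated PBMC after removal of ribosomal RNA, so that capture did not depend on a poly(A) tail.

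The libraries held between 1417467 and 8582852 counts, and 3 counts in a library corresponded to between 0.35 and 2.12 CPM (counts scaled to a library of 1000000). Marker lists were read for detection: 14 of 14 T-cell, 13 of 13 monocyte, 11 of 12 NK-cell and 10 of 12 B-cell markers passed the filter on low counts. So did 13 of 15 platelet, 13 of 14 red-cell and 13 of 14 neutrophil markers. Passing this filter cannot tell PBMC from other preparations of blood, so the label was not checked by it. Globin genes took between 0.0253% and 48.7% of the counts of a library, the highest share being in LG04 at 2 h. One conflict in the deposited tables touches LG04: in the table that joins the 2 h and pre-treatment counts of all animals, the column named for LG04 at 2 h holds the counts that the animal's own file gives for 1 day, while the other 23 of 24 such columns hold what their names say. The files of the single animals were used throughout, and some of the results at 2 h and 1 day are given also without these 2 libraries of LG04. Bulk RNA cannot tell fewer cells of a type from less RNA per cell.

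The 56 genes had 62934 counts in all. By class, the 5 linker histone H1 genes held 43.0% of these counts, the 17 H2B genes 24.0%, the 13 H2A genes 16.6%, the 10 H4 genes 11.4% and the 11 H3 genes 4.94%. By cluster, 49 of the genes belong to HIST1 and held 89.9% of the counts, 5 belong to HIST2 with 8.17%, and HIST4H4 and HIST3H2BB are the single genes of the remaining clusters.

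Since histone genes differ in transcript length, levels are compared between genes as FPKM (fragments scaled by transcript length and library size), as deposited. HIST1H1C, a linker histone gene, had the highest mean over the 16 libraries at 301.5 FPKM, with libraries between 157.5 and 421.1 FPKM. It was followed by HIST1H4H, an H4 gene, at 225.1 FPKM and by HIST1H1E, another linker histone gene, at 219.2 FPKM. HIST2H2AC and HIST1H2AC, which encode H2A, averaged 137.1 and 125.7 FPKM, and HIST1H2BJ and HIST1H2BC, which encode H2B, 118.1 and 102.5 FPKM. These 7 genes were the members with a mean of 100 FPKM or more, and the ranges of neighbouring genes in this order overlapped. A few libraries carry some of these means: by the median over the 16 libraries HIST1H1E stood at 209.8 FPKM, above HIST1H4H at 171.3 FPKM, and HIST1H2BC at 88.8 FPKM, above HIST1H2BJ at 71.8 FPKM. HIST2H2BE, an H2B gene, stood at 10.4 FPKM although it was among the 12 genes with the highest CPM. The H3 genes ranged from HIST1H3A at 19.3 FPKM to HIST2H3D at 1.74 FPKM. A mean of 10 FPKM or more was reached by 41 of the 56 genes, and 47 had a count in every library.

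Just inside the limit of 20 counts lay HIST1H4L with 20, HIST2H3D with 41 and HIST3H2BB with 61 counts, and just outside lay HIST3H2A with 6 and HIST1H2BA, HIST2H2BA and HIST3H3 with 1 each. Another 13 symbols were listed at 0 in every library, among them both genes of the close pairs HIST2H4A and HIST2H4B, HIST2H3A and HIST2H3C, HIST2H2AA3 and HIST2H2AA4, and HIST1H4J and HIST1H4K, as well as the testis-type genes HIST1H1T and HIST1H2AA. The sources used here do not give how reads that match several copies were counted, and a single gene can stand for, or lose reads to, its copies. Counts of HIST2H2BF sum its pair of entries in the tables.

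Of the 56 genes, 50 passed the filter on low counts and entered the tests, which compared times within animals with edgeR's quasi-likelihood test, fitted on 11545 genes and adjusted by Benjamini-Hochberg over all of them. HIST1H1A, HIST1H2AB, HIST1H2AD, HIST3H2BB, HIST2H3D and HIST1H4L were not tested. Levels of single genes are given below as normalised CPM, which are CPM of a library size scaled by the trimmed mean of M values (TMM). Because 8 of the genes, those known from human cells to have a polyadenylated transcript (HIST1H1C, HIST1H2AC, HIST1H2BC, HIST1H2BD, HIST1H2BJ, HIST1H2BK, HIST1H4H and HIST2H2BE), stood apart in several comparisons, they are described beside the other 42 tested. They are called the poly(A)-capable genes below. TMM scaling placed LG04 at 30 min and 2 h at 0.62 and 0.46 of its library total, and the other libraries between 0.80 and 1.27. With library totals in place of TMM scaling, an alternative chosen after seeing the data, the median log2 fold change of all genes was -0.16 at 30 min, -0.26 at 2 h and -0.21 at 1 day against pre-treatment.

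At 30 min, edgeR called 0 of the 50 histone genes against pre-treatment, as it called 0% of all genes tested, and 0 members had an unadjusted p under 0.05, beside 2.53% of all genes. DESeq2, run as an alternative, likewise called 0, beside 0.0478% of all genes. The median log2 fold change of the members was -0.13, with 20 of 50 above 0, beside 0.02 over all genes. Animals went different ways. In LG11 all 50 tested genes were lower at 30 min than before treatment, while 37 of 50 were higher in LG04, 39 in LG15 and 23 in LG12, and without LG11 the median was 0.19. HIST2H2AC, which had the lowest p among the members, stood at 56.2, 29.0, 20.8 and 37.3 normalised CPM at 30 min in LG04, LG11, LG12 and LG15, against 64.7, 70.1, 23.9 and 30.5 before treatment. Its value was lower at 30 min in 3 of 4 animals, and the groups overlapped (log2 fold change -0.42 ± 0.31 SE, edgeR adjusted p = 1.00).

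At 2 h, 0 of 50 histone genes were called by edgeR against pre-treatment, beside 0% of all genes tested, and DESeq2 called 0 as well, beside 0.593%. One member, HIST2H2AC, had an unadjusted p under 0.05, where 7.43% of all genes did. That count depended on the scale: with library totals it was 9 of 50 members, beside 808 of 11545 genes. Without the 2 h and 1 day libraries of LG04 it was 1 of 50, beside 779 of 11713. HIST2H2AC, an H2A gene, stood at 34.3, 18.2, 20.1 and 19.98 normalised CPM at 2 h in LG04, LG11, LG12 and LG15, against 64.7, 70.1, 23.9 and 30.5 before treatment. It was lower at 2 h in 4 of 4 animals, but LG12 differed little and the lowest pre-treatment library lay below the highest at 2 h (log2 fold change -1.003 ± 0.31 SE, edgeR adjusted p = 0.435). Over the 50 members the median log2 fold change was -0.24, with 7 above 0, beside 0.02 over all genes. This median depended on LG11, in which 49 of 50 genes were lower at 2 h, and without that animal it was 0.07. HIST1H1E, with 114.5, 118.0, 108.5 and 89.4 normalised CPM at 2 h against 191.0, 232.4, 97.0 and 124.5 before treatment in the same order of animals, was lower in 3 of 4 (log2 fold change -0.53 ± 0.27 SE, edgeR adjusted p = 0.690). All 4 tested H1 genes and all 11 tested H2A genes had fitted values below 0 at 2 h, none of them called. Comparing 2 h with 30 min, edgeR and DESeq2 called 0 of 50 members each, beside 0% of all genes by edgeR and 0.0773% by DESeq2. At an unadjusted p under 0.05 there were 0 members, beside 4.6% of all genes, and the median was -0.17, beside 0.01 over all genes.

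Several H2A genes of lower level had the lowest p at these early times. HIST1H2AE had 10.5, 5.67, 8.23 and 2.50 normalised CPM at 2 h in LG04, LG11, LG12 and LG15, against 17.9, 17.6, 6.61 and 7.77 before treatment. LG12 went against the other 3 animals (log2 fold change -0.82 ± 0.41 SE, edgeR adjusted p = 0.684). HIST1H2AI had 20, 18, 3 and 3 raw counts at 2 h in the same order of animals, against 34, 37, 8 and 18 before treatment, so its values in LG12 and LG15 rest on few reads (log2 fold change -0.66 ± 0.36 SE, edgeR adjusted p = 0.704). HIST1H2AL, another H2A gene, had 57, 12, 0 and 24 raw counts at 30 min, against 71, 79, 9 and 12 before treatment, and a count of 0 in LG12 allows up to 1.53 CPM at that depth. HIST1H2BK, an H2B gene, had 9.18, 4.46, 2.55 and 7.85 normalised CPM at 30 min, against 8.04, 8.10, 5.25 and 9.43 before treatment, lower in 3 of 4 animals (log2 fold change -0.46 ± 0.27 SE, edgeR adjusted p = 1.00). Between 2 h and 30 min, HIST1H4I and HIST1H2BC were lower at 2 h in 4 of 4 animals, with log2 fold changes of -0.69 ± 0.53 and -0.13 ± 0.36 SE, and HIST1H2BI was lower in 3 of 4 at -0.41 ± 0.30 SE.

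**Figure D1:**
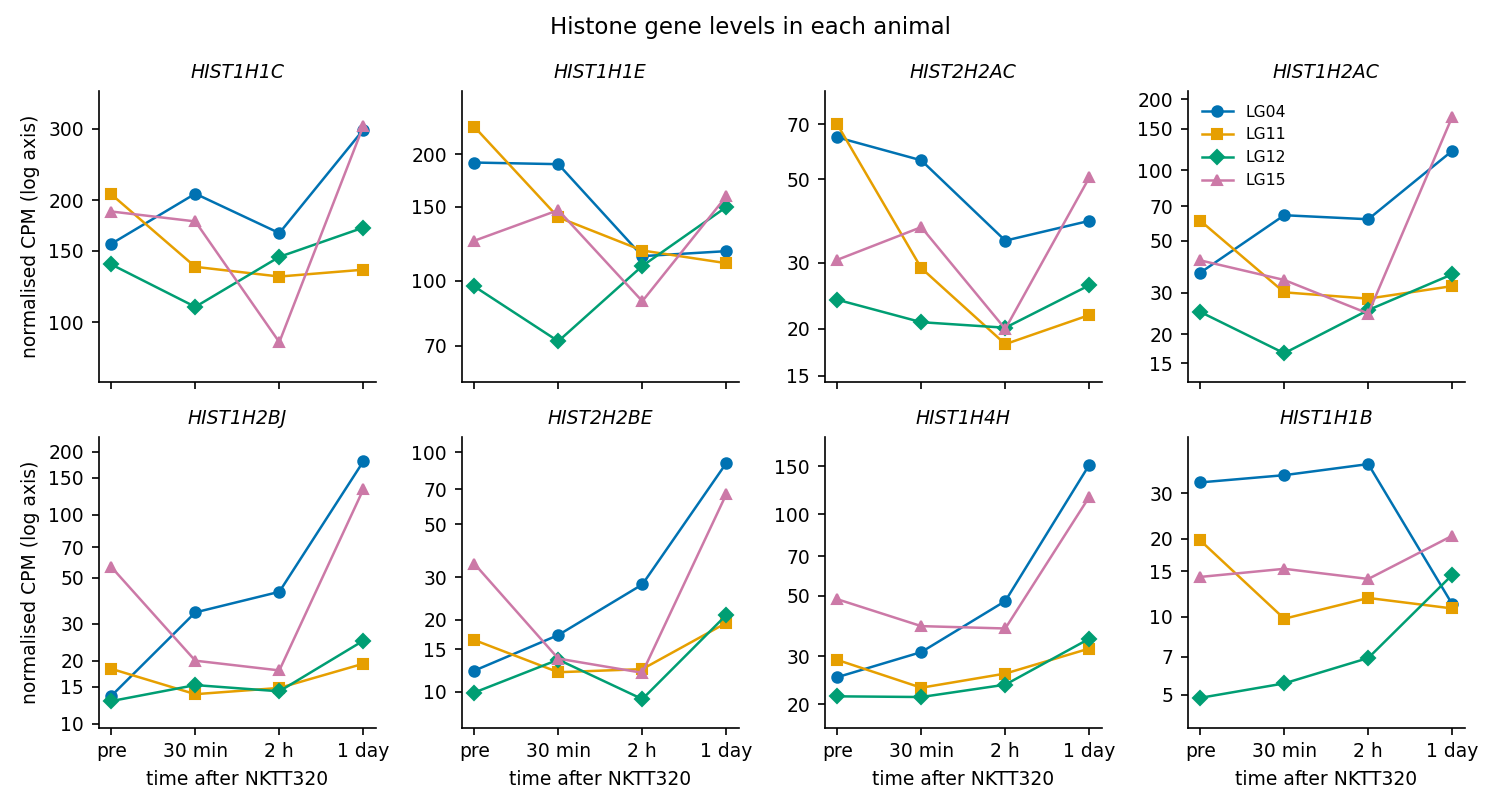
Normalised CPM (log axis, scaled per panel) of 8 histone genes in each library, by time after NKTT320 (evenly spaced categories), with 1 line per animal. HIST1H2BJ, HIST2H2BE and HIST1H4H were highest at 1 day in LG04 and LG15, while HIST1H1E and HIST2H2AC were highest before treatment in LG11.

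At 1 day, edgeR called 0 of 50 histone genes against pre-treatment, where it called 26 of all genes tested, or 0.225%. At an unadjusted p under 0.05 there were 3 members, HIST1H4H, HIST2H2BE and HIST1H2BJ, all of them poly(A)-capable. That share of the 50 lay below the 13.6% of all genes at the same threshold, but it depended on the animals. Without LG11 there were 13 of 50 members, beside 1332 of 11467 genes. Without LG04 there was 1 of 50, beside 946 of 11557. DESeq2 called 1 member, HIST1H4H, of 53 with an adjusted p, where it called 3.07% of all genes. Over all 50 the median log2 fold change was 0.02, with 26 above 0, beside -0.00 over all genes, but the poly(A)-capable genes and the rest differed: their medians were 0.87, with 8 of 8 above 0, and -0.12, with 18 of 42 above 0. Without LG15 the median of the poly(A)-capable genes was 0.36, without LG11 1.56 and without LG04 0.66. With library totals it was 0.66, and that of all 50 members was -0.19, beside -0.21 over all genes. The group was singled out with these results known, so its difference from the rest is a description of these libraries with no test.

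HIST1H4H, which encodes H4, had 151.8, 32.0, 34.8 and 115.8 normalised CPM at 1 day in LG04, LG11, LG12 and LG15, against 25.1, 29.1, 21.4 and 48.7 before treatment. It was higher at 1 day in 4 of 4 animals, by far most in LG04, and the level before treatment in LG15 lay above the levels at 1 day in LG11 and LG12. The log2 fold change was 1.22 ± 0.31 SE, or 2.33-fold, with an adjusted p of 0.1002 by edgeR and 0.0129 by DESeq2. Leaving out LG04 gave 0.73 by edgeR, leaving out its 2 h and 1 day libraries 0.80, and the range over animals left out was 0.73 to 1.60.

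HIST2H2BE, which encodes H2B, had 90.0, 19.4, 20.9 and 66.8 normalised CPM at 1 day, against 12.2, 16.4, 9.91 and 34.2 before treatment, in the same order of animals. It too was higher at 1 day in 4 of 4, with overlap of the groups through LG15 (log2 fold change 1.25 ± 0.39 SE, edgeR adjusted p = 0.161). HIST1H2BJ, another H2B gene, had 180.0, 19.4, 25.0 and 132.4 normalised CPM at 1 day, against 13.6, 18.3, 12.8 and 56.2 before treatment. Its value at 1 day was higher in 4 of 4 animals, but in LG11 by little (log2 fold change 1.47 ± 0.49 SE, edgeR adjusted p = 0.185). Without the 2 h and 1 day libraries of LG04 the log2 fold changes were 0.88 for HIST2H2BE and 1.05 for HIST1H2BJ.

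The H2A gene HIST1H2AC had 120.9, 32.0, 36.0 and 169.1 normalised CPM at 1 day, against 36.5, 60.9, 24.9 and 41.3 before treatment. LG11 went against the other 3 animals (log2 fold change 0.90 ± 0.43 SE, edgeR adjusted p = 0.384). HIST1H1C had 298.3, 134.9, 171.2 and 304.6 normalised CPM at 1 day against 156.2, 206.8, 139.0 and 187.6 before treatment, likewise with LG11 lower at 1 day (log2 fold change 0.34 ± 0.26 SE, edgeR adjusted p = 0.666). For the other linker histone gene of high level, HIST1H1E, the values were 117.6, 110.1, 149.7 and 158.8 normalised CPM at 1 day and 191.0, 232.4, 97.0 and 124.5 before treatment, with 2 animals on either side (log2 fold change -0.19 ± 0.27 SE, edgeR adjusted p = 0.877). The H2B genes HIST1H2BC, HIST1H2BD and HIST1H2BK had log2 fold changes of 0.49, 0.83 and 0.56, none of them called. In LG11, 47 of 50 genes were lower at 1 day than before treatment and in LG15 all 50 were higher, while LG12 had 44 higher and LG04 18. All comparisons with pre-treatment in LG11, at 30 min and 2 h too, share the same pre-treatment library. Summed over all members, the level in LG11 was 1079 normalised CPM before treatment, then 649.6 at 30 min, 575.5 at 2 h and 587.7 at 1 day.

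**Figure D2:**
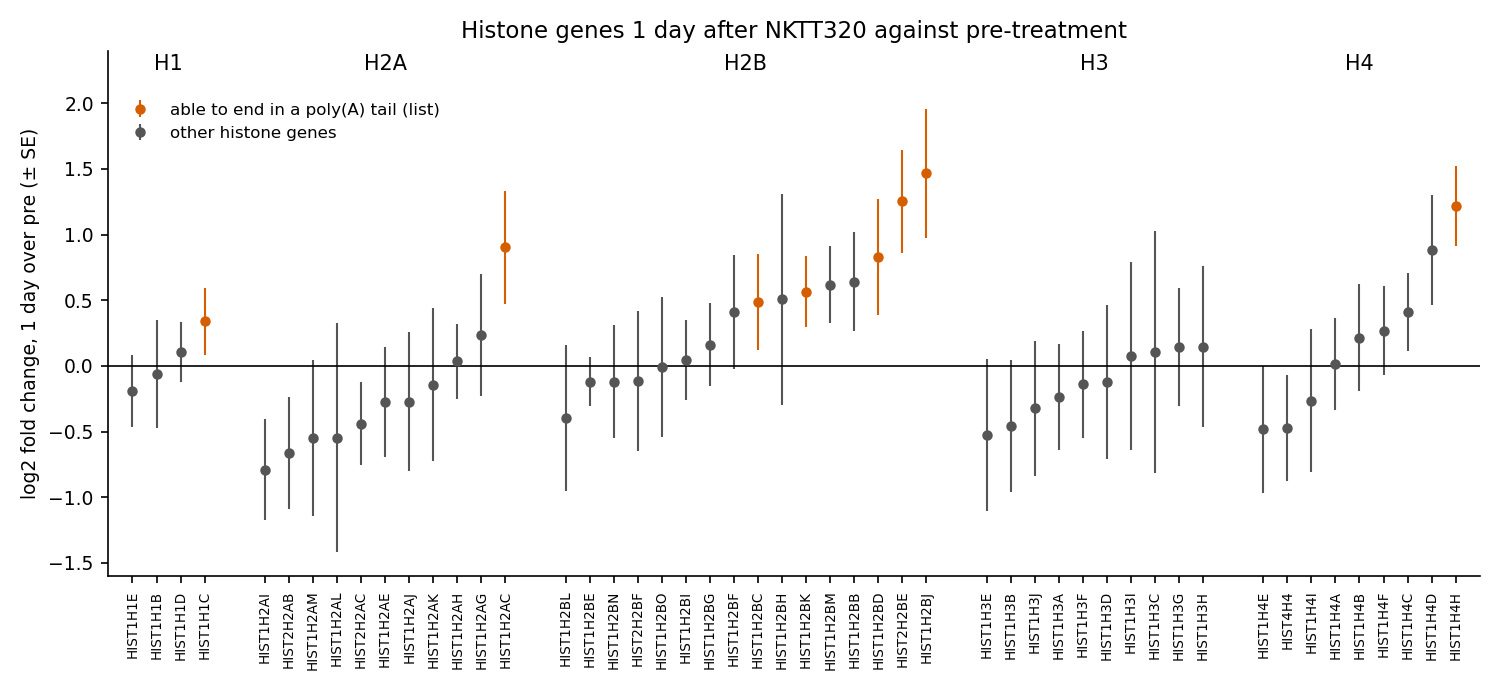
Log2 fold change (± SE, edgeR with animal in the model, 4 animals) at 1 day over pre-treatment for the 50 tested histone genes by class, ordered by size. The 8 poly(A)-capable genes, in orange, all lie above 0 and include the highest gene of the H1, H2A, H2B and H4 classes, and none of the 50 passed the adjusted threshold.

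Against 2 h, edgeR called 0 of 50 histone genes at 1 day, where it called 12 of all genes tested, or 0.104%. At an unadjusted p under 0.05 there were 8 members, which were 7 of the 8 poly(A)-capable genes and HIST1H4D, an H4 gene named here after its value was seen. Of all genes 12.6% reached that threshold. The count of members depended on the libraries. It was 3 of 50 without LG15, beside 1010 of 11822 genes, and 12 of 50 without LG11, beside 1513 of 11467. Without the 2 h and 1 day libraries of LG04 it was 7 of 50, beside 1061 of 11713. Leaving out the 4 shallowest libraries gave 0 of 52 members, beside 423 of 12327 genes. DESeq2 called 2 of 49 members with an adjusted p, HIST1H4H (adjusted p = 0.0493) and HIST2H2BE (adjusted p = 0.0345), where it called 1.06% of all genes. For the poly(A)-capable genes the median log2 fold change was 1.16 with 8 of 8 above 0, and 7 of the 8 were higher at 1 day in every animal. Without LG15 this median was 0.66. For the other 42 it was 0.23 with 30 above 0, and 3 of them were higher in every animal and 1 was lower. The median over all genes was -0.02. HIST2H2BE, with the lowest p, had 90.0, 19.4, 20.9 and 66.8 normalised CPM at 1 day in LG04, LG11, LG12 and LG15, against 28.0, 12.4, 9.31 and 11.99 at 2 h. Its value was higher at 1 day in 4 of 4 animals, and the groups overlapped through LG04 at 2 h (log2 fold change 1.499 ± 0.40 SE, edgeR adjusted p = 0.216). HIST1H2BD had 54.5, 13.4, 16.8 and 74.3 normalised CPM at 1 day, against 22.9, 11.6, 11.7 and 8.99 at 2 h, and was higher in 4 of 4 as well (log2 fold change 1.34 ± 0.45 SE, edgeR adjusted p = 0.284). Both comparisons use the same 1 day libraries, so their values are not independent of each other.

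A test for any difference among the 4 times called 0 of 50 histone genes by edgeR, where it called 0.104% of all genes tested. Of the 50 members 6 had an unadjusted p under 0.05, a share near the 12.2% of all genes, and the 6 were among the 8 poly(A)-capable genes. The lowest adjusted p was that of HIST1H4H at 0.138. DESeq2 was not run for this test.

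Markers of platelets, cell fragments without a nucleus that carry RNA from megakaryocytes, also differed between these libraries. Of the 15 listed markers 13 were tested and GP1BB was at 0 in every library. All 13 were above 0 at 1 day against pre-treatment, none called by edgeR, with a median log2 fold change of 2.63 and an animal median of 5.68 in LG04, 1.89 in LG11, 2.46 in LG12 and 1.61 in LG15. Their summed level ranged from 845.4 to 34247 normalised CPM at 1 day, against 138.0 to 10322 before treatment. PF4, a platelet chemokine, averaged 1056 normalised CPM at 1 day and 145.4 before treatment.

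The score and single genes can be set side by side in each library. With the mean log2 CPM of the 13 markers as a platelet score, LG04 had scores of 3.23, 5.86, 7.02 and 8.84 before treatment and at 30 min, 2 h and 1 day, and HIST1H2BJ had 13.6, 34.1, 42.8 and 180.0 normalised CPM in these libraries. In LG15 the score was 6.89 before treatment and 4.68, 5.88 and 8.70 at the later times, and HIST1H2BJ had 56.2 and then 20.02, 18.0 and 132.4 normalised CPM. In both animals the gene and the score were highest at 1 day, and in LG15 both were lower at 30 min and 2 h than before treatment. LG11, whose score was 1.92 before treatment and 2.52, 2.59 and 3.73 later, kept HIST1H2BJ between 13.8 and 19.4 normalised CPM. LG12, with scores between 1.67 and 3.98, kept it between 12.8 and 25.0. The sum of the 8 poly(A)-capable genes and the score did not always move together. In LG11 the sum was 407.6 normalised CPM before treatment and 273.7 at 1 day, while the score was higher at 1 day. In LG15 the sum was 333.1 at 30 min and 220.8 at 2 h, while the score was higher at 2 h. The part of platelets in the histone values was not tested. Per TMM-scaled size, all 8 poly(A)-capable genes had their highest level of the 16 libraries in LG04 or LG15 at 1 day, 4 in each. By CPM of the library total HIST1H2BC was instead highest in LG11 before treatment, at 44.1, beside 37.4 in LG15 at 1 day. HIST1H1C had 245.9 in LG04 at 1 day and 242.6 in LG11 before treatment. The rest of the 8 were still highest in LG04 or LG15 at 1 day. Of the other 42 tested genes 12 were highest in LG04 or LG15 at 1 day per TMM-scaled size, 2 in LG04 and 10 in LG15. Among these, HIST1H4D had 22.3 normalised CPM in LG04 and 18.2 in LG15 at 1 day, and between 1.28 and 11.4 in the other libraries. HIST1H1D, a linker histone gene, also had its highest level, 31.2 normalised CPM, in LG15 at 1 day, and its lowest, 11.5, in LG15 at 2 h.

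Markers of other cells differed between these libraries as well. All 13 monocyte markers had fitted values below 0 at 1 day against 2 h, none called by edgeR, with a median log2 fold change of -0.54 and animal medians of -2.03 in LG04, 0.37 in LG11, 0.46 in LG12 and -1.65 in LG15. Their summed level was 1256, 8428, 1527 and 1311 normalised CPM at 1 day in LG04, LG11, LG12 and LG15, against 6127, 5920, 1207 and 7463 at 2 h. The 13 tested neutrophil markers were likewise all below 0, none called, with a median of -1.53 and animal medians of -1.5998, -1.41, 0.68 and -3.71 in the same order. Their summed level ranged from 174.7 to 435.6 normalised CPM at 1 day, against 131.8 to 2637 at 2 h. Monocyte markers were thus lower at 1 day than at 2 h in LG04 and LG15, in which the poly(A)-capable genes had the larger differences, and higher in LG11 and LG12. Against pre-treatment, 11 of 13 monocyte markers were above 0 and 10 of 13 neutrophil markers below 0 at 1 day, none called. Monocyte animal medians were then -0.32 in LG04, 1.48 in LG11, 1.85 in LG12 and -0.48 in LG15, and neutrophil ones -3.38, -0.43, 0.74 and -0.83. The 13 tested red-cell markers were all above 0 at 1 day against pre-treatment, none called, with GYPB at 0 in every library and animal medians of -0.98, -0.19, 1.93 and 2.19. No marker of the monocyte and neutrophil lists was at 0 in every library, and the part of these cells in the histone values was not tested.

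With the platelet score added to the model, an alternative chosen after seeing the data, the log2 fold changes at 1 day against pre-treatment were -0.18 ± 0.43 SE for HIST1H2BJ, -0.11 ± 0.31 SE for HIST2H2BE and 0.41 ± 0.37 SE for HIST1H4H. The median of the 8 poly(A)-capable genes was then 0.13, against 0.87 without the score, and 0 of the 50 members had an unadjusted p under 0.05. Against 2 h the median was 0.51 with the score and 1.16 without it. With the score 0 of the 50 members had an unadjusted p under 0.05 in that comparison, beside 539 of 11545 genes. A covariate that moves with time takes up part of any difference between times, whatever its source.

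**Figure D3:**
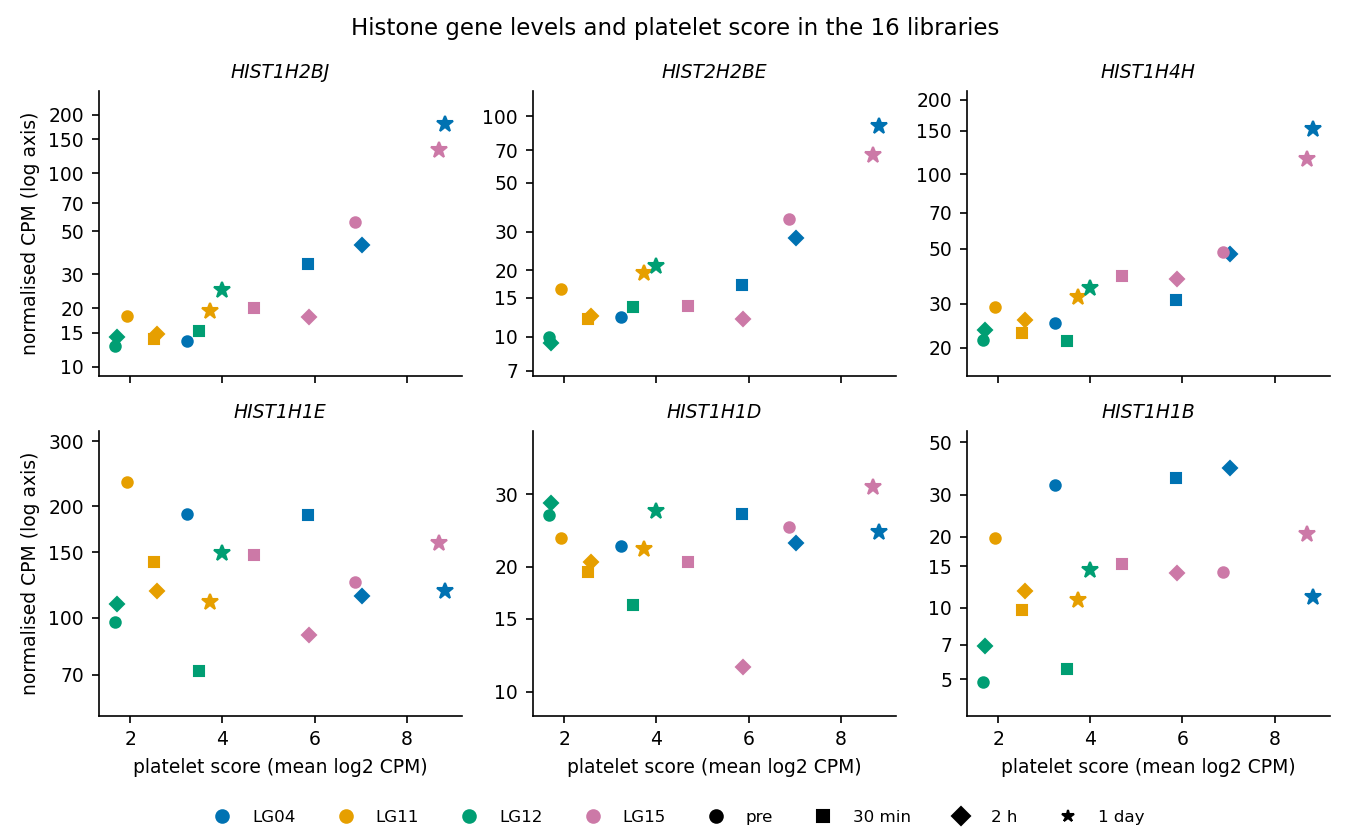
Normalised CPM (log axis, scaled per panel) of 6 histone genes against the platelet score (mean log2 CPM of 13 platelet markers) in the 16 libraries, coloured by animal and shaped by time. HIST1H2BJ, HIST2H2BE and HIST1H4H, all poly(A)-capable, are highest in the 1 day libraries of LG04 and LG15, which have the highest scores of 8.84 and 8.70, while HIST1H1D is highest at 31.2 in LG15 at 1 day and HIST1H1E and HIST1H1B are highest in other libraries.

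Poly(A)-capable genes held a larger share of the histone counts at 1 day than before treatment in 3 of 4 animals. The share was 66.8% in LG04 at 1 day, against 30.3% before treatment, 46.6% in LG11 against 37.8%, 43.4% in LG12 against 44.8%, and 58.7% in LG15 against 52.1%. LG04 had by far the largest difference. The share of these genes other than HIST1H1C was higher at 1 day in 4 of 4 animals. Its differences were 31.7, 5.02, 3.10 and 11.06 percentage points in LG04, LG11, LG12 and LG15. Class H2B held 34.9%, 24.6%, 25.9% and 30.04% of the histone counts at 1 day in LG04, LG11, LG12 and LG15, against 18.96%, 21.4%, 23.4% and 26.2% before treatment. It was higher in 4 of 4 animals, by 6.39 ± 6.40 percentage points (SD, n = 4), of which LG04 had 15.95 and the others between 2.50 and 3.87. Class H1 was lower at 1 day in 3 of 4, with 39.3% ± 8.33 at 1 day and 45.4% ± 3.51 before treatment (SD, n = 4 each). No test was run on these shares.

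Summed over the 56 genes, the histone level was 936.3 ± 243 CPM of the library total before treatment, 744.3 ± 183 at 30 min, 602.6 ± 119 at 2 h and 1019 ± 270 at 1 day (SD, n = 4 each). Between 1 day and 2 h it was higher at 1 day in 4 of 4 animals, with log2 ratios of 1.36 in LG04, 0.01 in LG11, 0.40 in LG12 and 1.18 in LG15. Per TMM-scaled library size these were 0.51, 0.03, 0.45 and 1.58. Between 2 h and pre-treatment it was lower at 2 h in 3 of 4, with log2 ratios of -0.98, -0.95, 0.11 and -0.67. The direction at 2 h depended on the scale in LG04, where globin genes took 48.7% of the counts at 2 h and 20.3% before treatment: per TMM-scaled library size its log2 ratio at 2 h was 0.05. At 30 min the ratio of LG04 was -0.30 by library total and 0.29 by TMM-scaled size. The mean ratio at 1 day against pre-treatment was 0.11 ± 0.70 (SD, n = 4), with LG11 at -0.94 and the other 3 animals between 0.38 and 0.51.

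Split in groups, the 8 poly(A)-capable genes summed to 952.8, 273.7, 345.9 and 929.3 normalised CPM at 1 day in LG04, LG11, LG12 and LG15, against 293.4, 407.6, 239.8 and 411.8 before treatment. The other 48 summed to 473.7, 314.0, 450.4 and 654.3 at 1 day, against 673.5, 671.6, 295.6 and 377.9 before treatment. In LG04 the sums of the 2 groups thus differed in direction, in LG11 both were lower at 1 day, and in LG12 and LG15 both were higher.

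**Figure D4:**
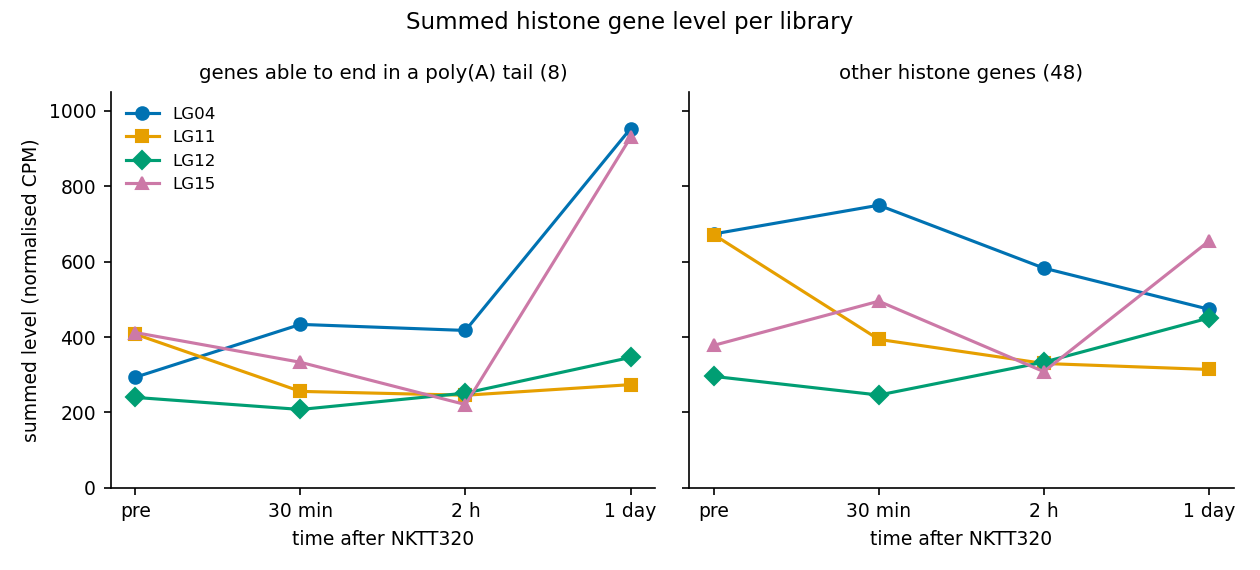
Summed normalised CPM of the 8 poly(A)-capable genes (left) and the other 48 histone genes (right) in each library, by time after NKTT320, with 1 line per animal. On the left LG04 and LG15 reach 952.8 and 929.3 at 1 day, and on the right LG04 and LG11 have lower sums at 1 day than before treatment.

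Part of the histone genes differed among the animals, over all times. A test over the 4 animals called 16 of 50 members by edgeR, or 32%, where it called 44.5% of all genes tested, so the share among histone genes lay below the background. All 16 were highest in LG04 per TMM-scaled size, with 14 lowest in LG12 and 2 lowest in LG11. By CPM of the library total 11 were highest in LG04 and 5, among them HIST1H4H and HIST1H2BK, in LG15, where HIST1H4H averaged 58.5 CPM, against 47.5 in LG04. Tested with library totals, 6 members were called, beside 7616 of 11545 genes tested. By class, the 16 called with TMM scaling were 5 of 10 H3, 4 of 9 H4, 3 of 11 H2A, 3 of 16 H2B and 1 of 4 H1 genes. HIST1H1B, the H1 gene among them, averaged 29.6 normalised CPM in LG04, 13.0 in LG11, 7.96 in LG12 and 16.02 in LG15 (edgeR adjusted p = 0.00993). In LG04 it stood at 33.0, 35.2 and 38.9 up to 2 h and at 11.2 at 1 day, so that the library at 1 day lay within the range of the other animals. HIST1H3H, an H3 gene, averaged 10.4, 4.03, 1.32 and 7.97 normalised CPM in the same order of animals (edgeR adjusted p = 0.0112), and HIST1H4D, an H4 gene, 13.2, 4.13, 2.76 and 8.37 (edgeR adjusted p = 0.00616). The count of histone genes called depended on the animals and the model, and that of all genes moved as well. It was 4 without LG04, beside 4443 of 11557 genes tested, and 2 without LG12, beside 1354 of 12055. Without LG15 it was 27, beside 5195 of 11822, and with the platelet score in the model 5, beside 3092 of 11545.

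**Figure D5:**
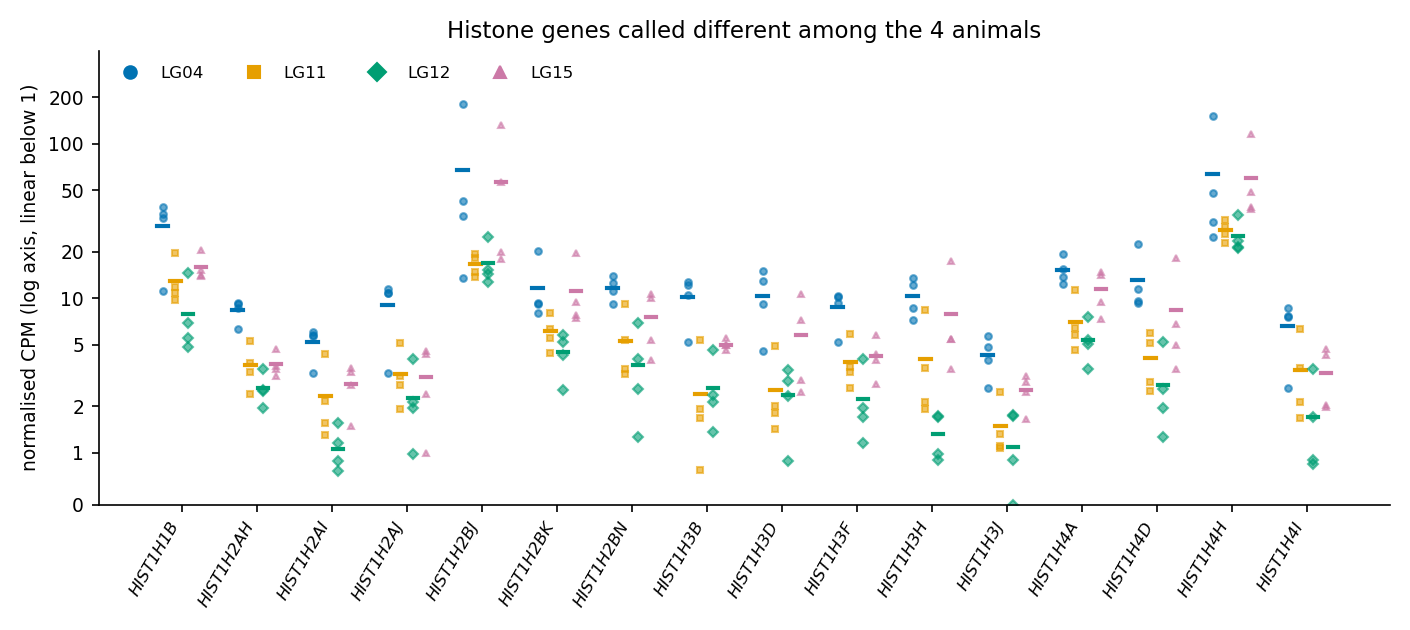
Normalised CPM of the 16 histone genes called among the 4 animals, with the 4 libraries of each animal as points and their mean as a bar (log axis, linear below 1). The mean of LG04 is the highest for all 16 genes on this scale, and for 11 of them by CPM of the library total.

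Genes of the same biology were read from lists, without a call at any time by edgeR. Of the genes that process histone transcripts, such as SLBP, which binds the stem-loop, and the U7 snRNP proteins LSM10 and LSM11, 32 of 34 listed were tested, with a median log2 fold change of 0.02 at 1 day and -0.00 at 2 h against pre-treatment. ZNF473, a component of that machinery, had log2 fold changes of -0.42 ± 0.16 SE at 2 h (adjusted p = 0.595) and 0.35 ± 0.16 SE at 1 day (adjusted p = 0.377). Among the chaperones that carry histones to DNA, 19 of 20 were tested with a median of -0.05 at 1 day. The largest of these by p were NAP1L1 at 1.10 ± 0.41 SE, and CHAF1A and CHAF1B, subunits of chromatin assembly factor CAF-1, at -0.73 ± 0.28 and -0.83 ± 0.33 SE (edgeR adjusted p = 0.230, 0.247 and 0.270).

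DNA replication genes, which are active in S phase as the histone genes are, had 36 of 42 listed tested, with medians of -0.00 at 30 min, -0.00 at 2 h and -0.08 at 1 day against pre-treatment. GINS1, a part of the replicative helicase, had the lowest p at 1 day (log2 fold change 0.88 ± 0.22 SE, edgeR adjusted p = 0.0981). Of the mitosis genes 15 of 20 were tested, and BUB1, a spindle checkpoint kinase, had the lowest p at 1 day (log2 fold change 1.16 ± 0.33 SE, edgeR adjusted p = 0.131). The replication-independent variants, of which 9 of 12 were tested and H3F3A was listed at 0, had a median of 0.04 at 1 day, and the variant gene H2AFV was at -0.29 ± 0.16 SE (edgeR adjusted p = 0.467). None of the 4 testis-type histone genes was tested.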

How the data were processed

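Counts per gene were deposited by the authors as raw read counts, in a file for each animal and later time that also holds the animal's pre-treatment library. FPKM values were deposited by the authors in matching files. Per the submitters' processing notes, the human builds were GRCh37 and hg19, and the tools were HTSeq, STAR, Trimmomatic, FastQC, edgeR and DESeq. Their settings, strand use and versions were not given in the sources used here. Reads of macaque RNA were thus counted on human gene symbols.

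Entries of the same symbol were summed (24369 entries, 23602 symbols), and symbols were taken as members at a total of 20 counts. Members and lists were chosen with earlier results of these data known. The main test was edgeR 4.0.16 (R 4.3.3) with TMM scaling, its filter on low counts, and time and animal in the model over all 16 libraries. It had 9 residual degrees of freedom. On simulated data it recovered 42, 41 and 33 of 100 genes with a log2 change of 1 at 30 min, 2 h and 1 day. With a log2 change of 2 it recovered 100 of 100 at each time. The changed genes were drawn from those of higher level. A 2-fold change could thus often be missed, and a gene not called is not shown to be unchanged. Adjusted p under 0.05 was called. DESeq2 1.42.0 was an alternative, beside others in the closing section. Samples of one animal were paired because they come from the same animal: in 23 of 24 pairs of libraries of one animal, deviations from the time means correlated at over 0.1 (median 0.56). With animal in the model, p-values for times measure the spread of the changes within these 4 animals, not that of their levels. Those for animals rest on the spread among the libraries of each animal, which are repeated bleeds and not replicate animals. Summed levels used CPM of the library total, with no test. Named genes were the 12 members of highest mean CPM, called members, the 4 members with the lowest p in each comparison, the 3 nearest the limit on either side, and for other lists called genes or the 3 with the lowest p, from which a part is given. The list of poly(A)-capable genes and the platelet score entered as described in the text. RefSeq's gene table for the macaque holds none of these symbols, so no sequences or positions are given.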

Additional observations from a re-analysis of the deposited data

Results flagged for a closer look

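For the named genes and further values at each time, a library was set apart when its gap to the nearest of the other 3 over the range exceeded Dixon's 95% critical value. Of 100 such sets of 4 values 7 passed, where chance flags about 1 in 20, and the sets share libraries. The 17 genes named for their level or p make up only part of the 100 sets, and all 7 flags fell among these genes. In LG04 at 2 h, 5 genes lay apart on the high side. HIST1H2AC stood at 61.7 normalised CPM there, beside 24.5 to 28.3 in the other animals. HIST1H2BJ stood at 42.8, beside 14.3 to 18.0. HIST2H2AC stood at 34.3, beside 18.2 to 20.1. HIST2H2BE stood at 28.0, beside 9.31 to 12.4. HIST1H4I stood at 7.53, beside 0.866 to 2.00. Before treatment, HIST1H2BJ had 56.2 normalised CPM in LG15, beside 12.8 to 18.3 in the other animals. At 1 day, HIST1H2AL had 14.2 in LG15, beside 0.837 to 2.32 in the others. The library size of LG04 at 2 h was scaled by TMM to 0.46 of its total, with globin genes at 48.7% of its counts. By CPM of the library total, none of these 7 sets of values passed. HIST1H2AC then stood at 28.4 in LG04 at 2 h, beside 25.9 to 32.3, HIST1H2BJ at 19.6, beside 16.9 to 19.05, and HIST2H2BE at 12.9, beside 11.7 to 14.2. HIST2H2AC stood at 15.8, beside 20.8 to 25.3, the lowest of the 4, and HIST1H4I at 3.46, beside 1.09 to 2.12. HIST1H2BJ in LG15 before treatment was at 63.6, beside 12.7 to 21.5, and HIST1H2AL in LG15 at 1 day at 11.4, beside 0.941 to 2.82. The platelet score was 7.02 in LG04 at 2 h and 6.89 in LG15 before treatment, the highest of their times, and its part in these values was not tested.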

How the results depend on the processing

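No histone gene was called by edgeR in any comparison of times under any alternative run, and DESeq2 called 1 at 1 day against pre-treatment and 2 at 1 day against 2 h. Counts over all genes moved more, and the cause was not tested. For 30 min, 2 h and 1 day against pre-treatment, 2 h against 30 min and 1 day against 2 h, edgeR called 0, 0, 26, 0 and 12 genes and DESeq2 9, 77, 387, 14 and 118. Any difference among the times gave 12. With no filter on low counts the numbers were 7 at 2 h, 70 at 1 day and 87 among the times. With no replicate block, which drops the pairing by animal, they were 3 at 1 day, 0 at 1 day against 2 h and 2 among the times, and the pairing changed no call of a histone gene. Without the 1 day library of LG04 they were 2 at 2 h, 6 at 1 day against 2 h and 2 among the times. Without both its 2 h and 1 day libraries they were 1 at 1 day and 1 among the times. Without the 4 shallowest libraries they were 0 at 1 day, 0 at 1 day against 2 h, 0 among the times and 3405 among the animals, against 5142. Leaving out globin genes gave 25 among the times. With the platelet score there were 1 at 1 day, 4 at 1 day against 2 h, 0 among the times, and 3092 among the animals, with 5 histone genes among them against 16. Library totals in place of TMM scaling gave 2 at 2 h, 46 at 1 day, 88 among the times and 7616 among the animals, with 6 histone genes. Leaving out an animal at a time gave 1 to 67 at 1 day, 0 to 2 at 1 day against 2 h, 0 to 2 among the times, and 1354 to 5195 among the animals, with 2 to 27 histone genes. The poly(A)-capable median at 2 h against 30 min was 0.06, and it was -0.086 with library totals, 0.20 without the 4 shallowest libraries and -0.25 without the 2 h and 1 day libraries of LG04. At 1 day against pre-treatment HIST2H2BE and HIST1H2BJ turned to -0.11 and -0.18 with the platelet score. A limit of 10 counts in place of 20 kept 56 genes, and one of 50 kept 54. Depth limits the low genes: 3 counts came to up to 2.12 CPM, above the level of several H3 genes in single libraries.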
